A study of Callithrix jacchus with 4 samples.

Results

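Connexins and pannexins are the proteins that cells use to build large membrane pores, and 7 of their genes (GJA1, GJB6, GJB2, GJB1, GJD2, PANX1 and PANX2) are described here in the frontal cortex of adult common marmosets (Callithrix jacchus). The 7 were picked by gene symbol, as gap junction genes of astrocytes, oligodendrocytes and neurons and as pannexins, out of 35108 genes in the count table. All 7 were present and all 7 passed the filter on low counts. PANX2 had already stood out in an earlier comparison of these same libraries, so the differences between genotypes are given as descriptions of these libraries. The study sequenced RNA of 2 libraries labelled APP transgene, from females, and 2 labelled WT, for which no sex was given. The transgene carries mutant amyloid precursor protein (APP) and is driven by the human EF1α promoter, which belongs to a translation elongation factor gene and is active in most cell types. The groups are called transgenic and wild type below.

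In rodent brain, connexins dock across the gap between adjoining cells to form gap junctions, through which ions and small metabolites pass directly. Astrocytes are coupled into a network by GJA1, GJB6 and, at lower levels, GJB2. Oligodendrocytes use GJB1 among others, and the electrical synapses of neurons, many of them between inhibitory interneurons, use GJD2. Pannexins are related in membrane topology but are thought to work mostly as single-membrane channels, and PANX1 is a known route of ATP release.

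Total counts were 13462167 and 18932180 in transgenic libraries 1 and 2, against 12657323 and 13569838 in wild-type libraries 1 and 2. Levels are given as CPM, read counts scaled to library sizes that were adjusted by TMM. The level that 3 counts give was 0.17 to 0.23 CPM, and anything under it is not distinguishable from 0. Transgenic library 2 stood apart. Over the genes tested, the SD of its log2 differences from the other libraries was 0.74 to 0.79, against 0.44 to 0.52 among the other 3. Cortical neuron markers were present in every library, with the glutamate transporter gene SLC17A7 at 1157 and 1359 CPM in transgenic and 1066 and 1261 CPM in wild-type libraries. Choroid plexus and ependymal markers were near absent, their summed level being 12.6 and 4.71 CPM in transgenic and 10.2 and 10.4 CPM in wild-type libraries. The fold changes of the 7 genes and the medians of the pathway lists are therefore also given without transgenic library 2.

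Transgenic and wild-type cortex were compared with the quasi-likelihood test of edgeR, and at an adjusted p of 0.05 it called 0 of the 7 genes, as it did over the whole table (0% of 16385 genes tested). At an unadjusted p under 0.05, 1 of the 7 was lower (2.39% of all genes) and 0 were higher (3.23% of all genes). For 2 of the 7, PANX2 and GJB1, the groups did not overlap and the transgenic values were the lower ones, which held for 19.4% of all genes. For 1, PANX1, the transgenic values were the higher ones without overlap, which held for 19.5% of all genes. The fitted log2 fold change was negative for 6 of the 7, and for 4 without transgenic library 2. Its median over the 7 was -0.89, and -0.10 without transgenic library 2, beside -0.00 over all genes.

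**Figure D1:**
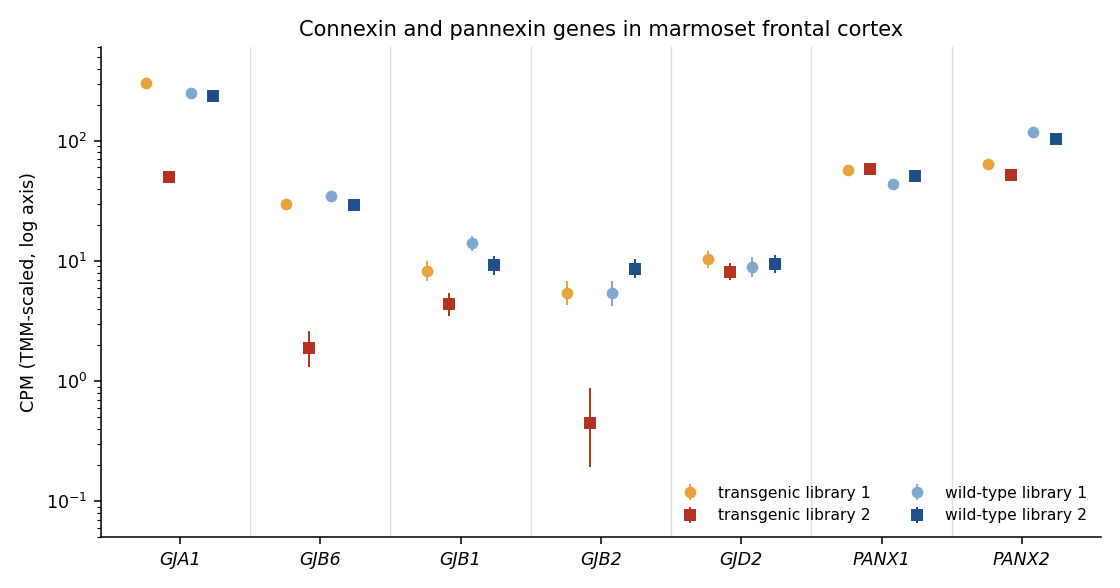
Level of each of the 7 genes in CPM (log axis) in each library, transgenic left of wild type, with exact 95% Poisson intervals that cover counting error only. GJA1, GJB6 and GJB2 were low in transgenic library 2 alone, GJB1 and PANX2 were lower in both transgenic libraries, and GJD2 was at 8.14 to 10.3 CPM throughout.

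The 3 astrocyte connexins were low in transgenic library 2 and not in transgenic library 1. GJA1, the main connexin of astrocytes, was at 302 and 49.9 CPM in transgenic libraries 1 and 2, against 250 and 235 CPM in wild-type libraries 1 and 2. Transgenic library 1 was thus the highest of the 4 and transgenic library 2 the lowest, 4.86-fold under the wild-type mean. The groups averaged 176 ± 178 CPM in transgenic and 243 ± 10.7 CPM in wild type (SD, n = 2 each). The fitted log2 fold change was -0.47 ± 0.76 (SE), with an adjusted p of 0.88 in edgeR. Without transgenic library 2 it turned to 0.31, and without transgenic library 1 it was -2.28.

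GJB6, the connexin that astrocytes of grey matter add to GJA1 as they mature, had the widest gap of the 7 between transgenic library 2 and the wild-type mean. It had 407 and 34 counts in the transgenic libraries, which is 29.9 and 1.88 CPM, against 452 and 399 counts or 35.0 and 29.2 CPM in the wild-type libraries. The value of transgenic library 1 fell inside the wild-type range. Transgenic library 2 was 17.0-fold under the wild-type mean (exact 95% Poisson interval of its level 1.30 to 2.63 CPM), and 10 of the 16385 genes tested lay further below their wild-type mean there. The fitted log2 fold change was -1.02 ± 1.06 (SE; adjusted p = 0.83 in edgeR), and -0.10 without transgenic library 2.

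GJB2, which in rodents is found in astrocytes and strongly in the meninges, had the fewest counts of the 7. They were 74 and 8 in the transgenic libraries and 70 and 118 in the wild-type libraries. In CPM these are 5.44 and 0.443 in transgenic, against 5.42 and 8.63 in wild type. Transgenic library 2 was 15.9-fold under the wild-type mean (95% Poisson interval of its level 0.191 to 0.873 CPM), while transgenic library 1 was close to wild-type library 1. The fitted log2 fold change was -1.28 ± 0.99 (SE; adjusted p = 0.80 in edgeR), and -0.37 without transgenic library 2.

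GJB2 and GJB6 are neighbours, with no annotated gene between them, in calJac240_pri, a marmoset assembly that may differ from the one used for counting. Their profiles across the 4 libraries were the closest among the 3 astrocyte connexins. The root mean square difference of the centred log2 CPM was 0.40 between GJB6 and GJB2, 0.60 between GJA1 and GJB2 and 0.71 between GJA1 and GJB6. There were 0.182 and 0.235 GJB2 counts per GJB6 count in the transgenic libraries, against 0.155 and 0.296 in the wild-type libraries, so the transgenic ratios lay inside the wild-type range. The ratio of transgenic library 2 rested on only 8 GJB2 and 34 GJB6 counts. GJB6 counts per GJA1 count were 0.0991 and 0.0377 in the transgenic libraries, against 0.140 and 0.124 in the wild-type libraries. Both transgenic ratios were the lower ones, also in transgenic library 1. Such ratios do not depend on library scaling, and with transcript lengths not used they compare libraries, not the abundance of 2 genes.

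Astrocyte markers were also low in transgenic library 2, and their part in the connexin values was not tested. Over 12 markers the median log2 deviation from the wild-type mean was -0.08 and -1.63 in the transgenic libraries, against 0.13 and -0.13 in the wild-type libraries. Their summed level was 12628 and 4610 CPM in transgenic and 14670 and 12118 CPM in wild-type libraries, and no marker was at 0. In bulk tissue, fewer cells of a type and less RNA per cell cannot be told apart. In transgenic library 2, GJA1 deviated by -2.28, with 3 of the 12 markers below it, so it lay within the range of the list (-3.32 to 0.08). GJB6 at -3.99 and GJB2 at -3.59 lay below all 12 markers. The lowest marker was FGFR3, a growth factor receptor gene of astrocytes, at 70.8 and 8.92 CPM in transgenic and 88.3 and 92.1 CPM in wild-type libraries. GFAP, the intermediate filament gene, was at 757 and 635 CPM in transgenic and 695 and 517 CPM in wild-type libraries, and the water channel gene AQP4 was at 256 and 126 CPM against 251 and 248 CPM. GFAP, at a deviation of 0.08, was the only marker of the list above its wild-type mean in transgenic library 2. The number of GJA1 counts per GFAP count was 0.398 and 0.0787 in transgenic libraries and 0.360 and 0.455 in wild-type libraries. Per AQP4 count it was 1.18 and 0.396 in transgenic libraries, against 0.998 and 0.948 in wild-type libraries. In transgenic library 1, by contrast, GJA1 lay above 11 of the 12 markers.

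Because GJB2 can come from the meninges, it was also set beside meningeal fibroblast markers. Of these, 10 of 12 overlapped between the genotypes. The other 2 (16.7%) were higher in both transgenic libraries without overlap, which held for 19.5% of all genes. Over 12 markers the median log2 deviation was 1.20 and -0.40 in the transgenic libraries and -0.80 and 0.80 in the wild-type libraries. Decorin (DCN), a matrix proteoglycan gene of these cells, was at 69.8 and 18.3 CPM in transgenic and 7.97 and 44.7 CPM in wild-type libraries. Transgenic library 1 had the highest DCN and wild-type library 1 the lowest, while their GJB2 levels were 5.44 and 5.42 CPM. The part of meningeal RNA in the GJB2 values was not tested.

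**Figure D2:**
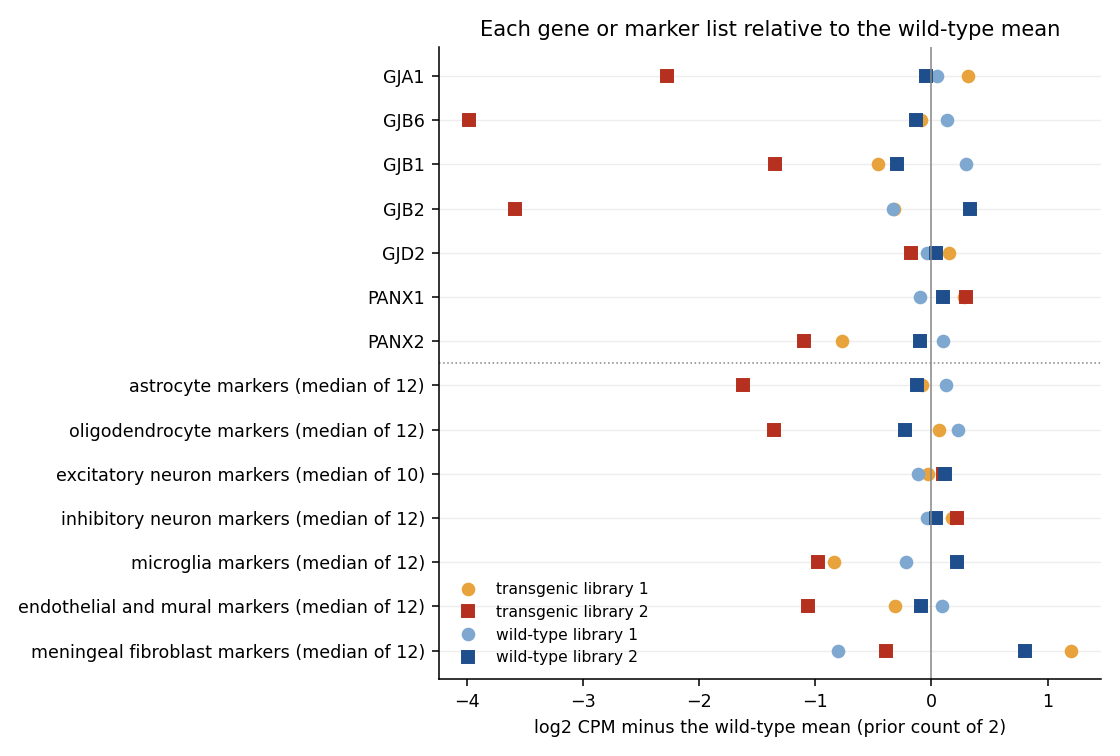
Log2 CPM minus the wild-type mean for each of the 7 genes (above the dotted line) and the median over each marker list (below it), 1 point per library. In transgenic library 2, GJB6 (-3.99) and GJB2 (-3.59) lay further left than the median of any list shown. The medians of excitatory and inhibitory neuron markers were 0.10 and 0.22 there.

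GJB1, the oligodendrocyte connexin whose human mutations cause an X-linked neuropathy, was lowest in transgenic library 2 and lower in both transgenic libraries. It was at 8.23 and 4.37 CPM in transgenic libraries, against 14.01 and 9.21 CPM in wild-type libraries. The groups did not overlap, though transgenic library 1 was close to wild-type library 2. The group means were 6.30 ± 2.73 CPM in transgenic and 11.6 ± 3.39 CPM in wild type (SD, n = 2 each). The fitted log2 fold change was -0.89 ± 0.40 (SE), with an adjusted p of 0.79 in edgeR, and it was -0.50 without transgenic library 2 and -0.56 without wild-type library 1. The gene is X-linked and the sexes were not balanced: KDM5D, a gene on the Y chromosome, was counted 0 and 0 times in transgenic libraries and 2 and 243 times in wild-type libraries. Genotype and sex cannot be told apart in wild-type library 2 against the transgenic libraries.

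Oligodendrocyte markers were at a median log2 deviation of 0.06 and -1.36 in transgenic and 0.23 and -0.23 in wild-type libraries. Their summed level was 3360 and 1236 CPM in transgenic and 3399 and 2690 CPM in wild-type libraries, with no marker at 0. In transgenic library 2, GJB1 deviated by -1.35, which lay within 0.01 log2 units of that median. In transgenic library 1 it lay below all 12 markers, 0.52 log2 units under the median. Myelin basic protein, MBP, was at 851 and 353 CPM in transgenic and 1089 and 739 CPM in wild-type libraries. There were 0.968 and 1.24 GJB1 counts per 100 MBP counts in transgenic libraries, against 1.29 and 1.25 in wild-type libraries, so the lowest of the 4 ratios was that of transgenic library 1. The part of oligodendrocyte RNA content in the GJB1 values was not tested.

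**Figure D3:**
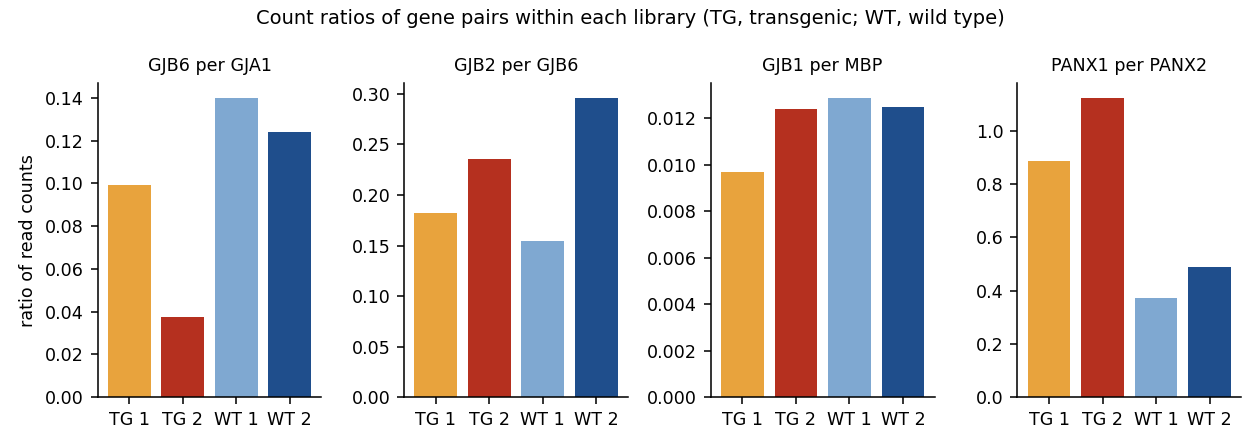
Ratio of the read counts of 2 genes within each library, transgenic left of wild type, with bars from 0. PANX1 per PANX2 was higher in both transgenic libraries (0.886 and 1.12) than in both wild-type libraries (0.372 and 0.489), GJB6 per GJA1 was lower in both, and GJB1 per MBP was lowest in transgenic library 1.

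GJD2, the connexin of neuronal electrical synapses, was the steadiest of the 7. It was at 10.3 and 8.14 CPM in transgenic libraries, against 8.98 and 9.51 CPM in wild-type libraries. The transgenic values enclosed the wild-type values. The log2 fold change was -0.01 ± 0.24 (SE; adjusted p = 0.996 in edgeR), and its sign depended on the library left out. Inhibitory neuron markers were at a median log2 deviation of 0.18 and 0.22 in transgenic and -0.04 and 0.04 in wild-type libraries. GAD1, the gene of a GABA-synthesizing enzyme, was at 286 and 319 CPM in transgenic and 232 and 247 CPM in wild-type libraries.

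The 2 pannexins differed in direction. PANX1 was at 57.3 and 58.0 CPM in transgenic libraries, against 44.0 and 50.7 CPM in wild-type libraries, so both transgenic libraries lay above both wild-type libraries. Its log2 fold change was 0.28 ± 0.14 (SE; adjusted p = 0.79 in edgeR), and 0.27 without transgenic library 2. The group means were 57.6 ± 0.552 CPM in transgenic and 47.4 ± 4.71 CPM in wild type (SD, n = 2 each).

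PANX2, a pannexin found mainly in the nervous system, had 879 and 934 counts in transgenic libraries and 1528 and 1417 in wild-type libraries. In CPM it was at 64.6 and 51.7 in transgenic, against 118 and 104 in wild type. Both transgenic libraries were low, and the gap between the groups was wider than the spread within either. The fitted level was 1.91-fold lower in transgenic cortex (log2 fold change -0.93 ± 0.16 SE; adjusted p = 0.79 in edgeR's fit over all genes). Of all genes tested, 28 had a smaller p than PANX2. DESeq2 gave an adjusted p of 0.013 for it, where it called 0.0918% of genes as lower. In the 4 fits that left out a library, the log2 fold change of PANX2 was -1.10 without transgenic library 1, -0.78 without transgenic library 2, -0.84 without wild-type library 1 and -1.02 without wild-type library 2. The ratio of PANX1 to PANX2 counts was 0.886 and 1.12 in transgenic libraries, against 0.372 and 0.489 in wild-type libraries.

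PANX2 was low in both transgenic libraries, while the medians of the neuron markers were not. Excitatory neuron markers had a median log2 deviation of -0.03 and 0.10 in transgenic and -0.11 and 0.11 in wild-type libraries, while PANX2 deviated by -0.78 and -1.10 in the transgenic libraries. In each transgenic library PANX2 lay below all 12 inhibitory markers and below 9 of the 10 excitatory markers. The exception was SLC17A6, a second vesicular glutamate transporter gene, at 1.69 and 0.388 CPM in transgenic and 5.26 and 4.61 CPM in wild-type libraries. Of the 10 excitatory markers, 4 (40%), SLC17A6 among them, were lower without overlap, against 19.4% of all genes. Another 2 (20%) were higher without overlap, against 19.5% of all genes. Inhibitory markers had a median log2 deviation of 0.18 and 0.22 in transgenic and -0.04 and 0.04 in wild-type libraries. Of these 12, 7 (58.3%) were higher without overlap, against 19.5% of all genes. Another 2 (16.7%) were lower without overlap, against 19.4% of all genes. Over the inhibitory list, 9 of 12 genes were higher and 3 lower in sign. PVALB, 1 of the lower ones and the calcium-binding protein gene of fast-spiking interneurons, was at 29.6 and 25.4 CPM in transgenic and 44.5 and 35.5 CPM in wild-type libraries. Beside glial markers the place of PANX2 differed between the transgenic libraries: 0 of 12 astrocyte and 0 of 12 oligodendrocyte markers lay below it in library 1, and 9 of 12 and 7 of 12 did in library 2. Microglia markers were lower in both, at a median log2 deviation of -0.84 and -0.98 in transgenic and -0.22 and 0.22 in wild-type libraries, and their part in the PANX2 values was not tested.

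**Figure D4:**
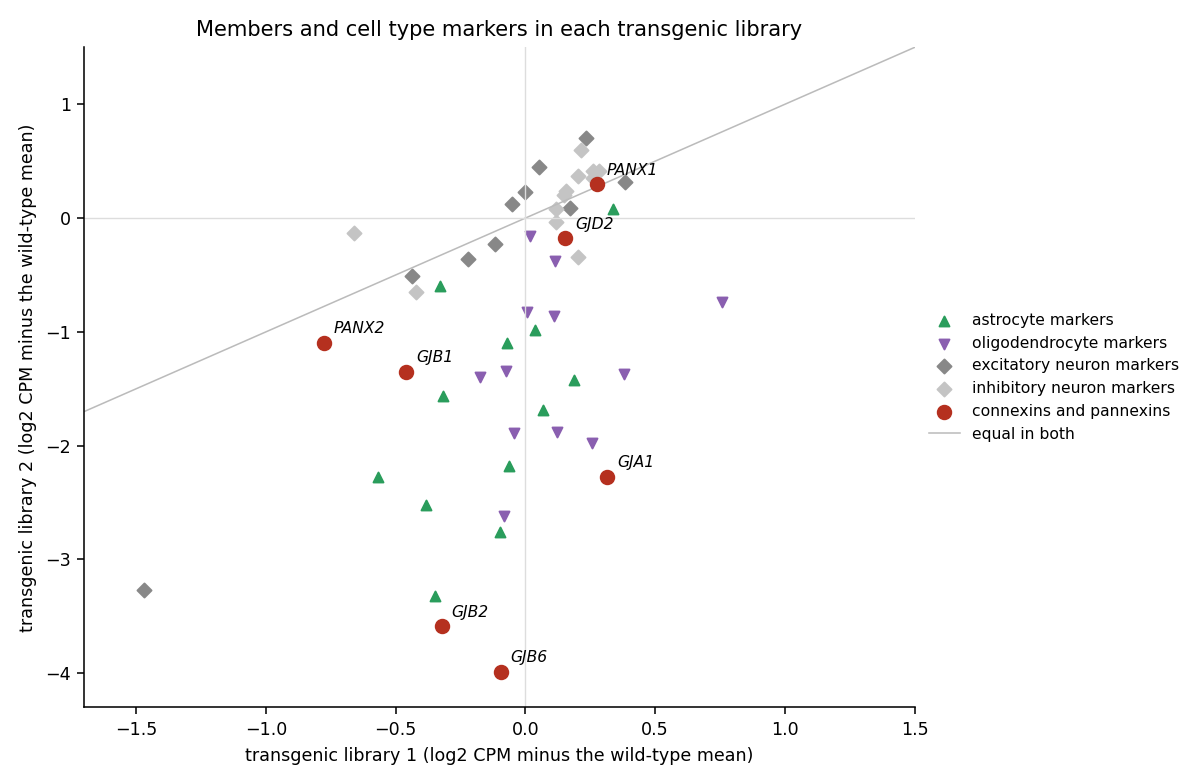
Log2 CPM minus the wild-type mean in transgenic library 1 (horizontal) and transgenic library 2 (vertical) for the 7 genes and for markers of astrocytes, oligodendrocytes and neurons, 1 point per gene. GJA1, GJB6 and GJB2 lay far below the line of equal values together with many glial markers, while PANX2 (-0.78 and -1.10) and PANX1 (0.28 and 0.30) lay close to it.

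How many of the 7 passed depended on the transgenic library left out. Without transgenic library 1, edgeR called 5 of the 7 as lower, GJA1, GJB6, GJB2, GJB1 and PANX2, where it called 5.4% of all genes as lower. The adjusted p was 0.00026, 0.00022, 0.0038, 0.040 and 0.0050 for these genes in that order. That fit compared 1 transgenic library with 2 wild-type libraries and assumed that the lone library varies as the wild-type libraries do. In the same fit the median log2 fold change was -1.64 over the astrocyte markers and -1.37 over the oligodendrocyte markers. It was -1.27 over the oligodendrocyte precursor markers and -1.01 over the microglia markers. The median was also negative over endothelial and mural markers (-1.10), meningeal fibroblast markers (-0.61) and choroid plexus and ependymal markers (-1.19, 5 genes). Over the neuron markers it was 0.09 for the excitatory list, with 4 of 10 genes lower in sign, and 0.22 for the inhibitory list, with 4 of 12 lower. Without transgenic library 2, 0 of the 7 were called, beside 0.0175% of all genes.

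**Figure D5:**
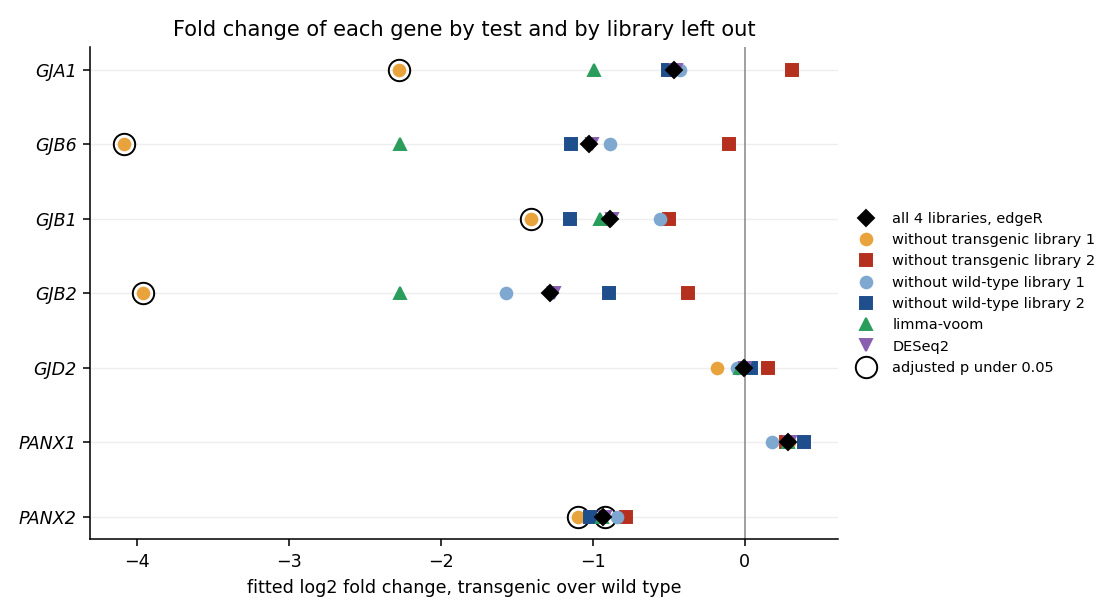
Fitted log2 fold change, transgenic over wild type, of each of the 7 genes with all 4 libraries in edgeR, in limma-voom and DESeq2, and in edgeR with each library left out; circles mark an adjusted p under 0.05. GJA1, GJB6 and GJB2 ranged from -4.08 to 0.31 depending on which transgenic library was used, while PANX2 stayed between -1.10 and -0.78 and PANX1 above 0.

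For each gene, the 3 genes with a mean count of at least 50 whose centred log2 CPM over the 4 libraries differed least from it are named as a description. SMO, GLI3 and MPZL2 were nearest to GJA1, with root mean square differences of 0.07 to 0.09 log2 units. LFNG, GPRC5C and MAP3K19 were nearest to GJB6 (0.09 to 0.10). LFNG, for example, was at 13.7 and 0.775 CPM in transgenic and 13.6 and 12.4 CPM in wild-type libraries. CX3CR1, ACY3 and SLC39A12 were nearest to GJB2 (0.09 to 0.14), the microglial receptor gene CX3CR1 being at 40.3 and 3.77 CPM in transgenic and 37.5 and 68.5 CPM in wild-type libraries. CST3 and IMPA2 were among the nearest to GJB1 (0.06 to 0.07). For GJD2 they were SEPTIN11, ZBTB38 and RECQL (0.0032 to 0.011), and for PANX1 they were FAM53C, WDR11 and RAP1B (0.02). RBFA and POLD4 were among the nearest to PANX2 (0.04 to 0.05). RBFA was at 20.9 and 15.8 CPM in transgenic and 37.8 and 31.5 CPM in wild-type libraries.

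Of the rest of the family, 16 of 17 symbols were in the table and 6 passed the filter on low counts. None passed the adjusted threshold in either direction. The 6 genes had a median log2 fold change of -0.60, and the 7 kept with transgenic library 2 left out had one of -0.44. GJC1, found in rodents in vascular smooth muscle and heart, was at 3.01 and 3.21 CPM in transgenic and 3.79 and 3.36 CPM in wild-type libraries. The vascular connexin GJA5 was at 0.808 and 0.443 CPM in transgenic and 0.696 and 0.878 CPM in wild-type libraries. GJA9 was at 0.367 and 0.609 CPM against 0.929 and 0.878 CPM. GJD4 was at 12.9 and 15.4 CPM in transgenic and 11.1 and 11.99 CPM in wild-type libraries, but it overlaps CCNY in calJac240_pri. GJC1, GJA9 and GJA4 also overlap other annotated genes there. Only whole gene spans were compared, and strandedness was not given. Whether the counts of these 4 genes include reads of the genes they overlap was not tested. PANX3, a pannexin best known from cartilage and skin, had 13 and 12 counts in transgenic libraries and 21 and 95 in wild-type libraries (log2 fold change -2.41 ± 0.77 SE; adjusted p = 0.79 in edgeR), so its wild-type mean rested on wild-type library 2. The remaining 10 symbols in the table, among them the endothelial connexin GJA4 at 7 and 7 counts in transgenic and 14 and 10 in wild-type libraries, failed the filter.

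Proteins that bind or regulate connexins showed no common direction. Of 13 genes, 7 were higher and 6 lower in sign, 0 passed the adjusted threshold in either direction, and the median log2 fold change was 0.02 (0.06 without transgenic library 2, -0.03 without transgenic library 1 and -0.04 without wild-type library 1). Without transgenic library 1, edgeR called 4 of the 13 as lower: MLC1 and HEPACAM, which encode astrocyte membrane proteins, the scaffold gene TJP1 and the caveolin gene CAV1. MLC1 was at 149 and 26.9 CPM in transgenic and 150 and 162 CPM in wild-type libraries.

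Other large-pore channels and the ATP pathway that pannexins feed were also tested gene by gene. Of 8 genes kept among the volume-regulated (LRRC8) and CALHM channels, 0 passed the adjusted threshold and 0 had an unadjusted p under 0.05. The 8 genes had a median log2 fold change of 0.06, or 0.13 with transgenic library 2 left out. The smallest p-values belonged to LRRC8A, the obligatory subunit of the volume-regulated anion channel, at 63.6 and 60.6 CPM in transgenic and 75.4 and 78.7 CPM in wild-type libraries, and to CALHM6, at 0.735 and 3.43 CPM against 0.310 and 0.731 CPM, both with an adjusted p of 0.79 in edgeR. Among 20 purinergic genes kept, 16 were lower and 4 higher in sign, where 8253 of all 16385 genes were lower, and 0 passed the adjusted threshold in either direction. The median log2 fold change of the purinergic genes was -0.23, and it was -0.20 without transgenic library 2 and -0.08 without wild-type library 2, where 11 of 20 genes were lower in sign. The ATP and ADP receptor gene P2RY1 was at 4.85 and 7.09 CPM in transgenic and 2.17 and 1.90 CPM in wild-type libraries (log2 fold change 1.55 ± 0.35 SE; adjusted p = 0.79 in edgeR). The adenosine receptor gene ADORA3 was at 1.69 and 0.886 CPM in transgenic and 3.56 and 5.92 CPM in wild-type libraries (log2 fold change -1.89 ± 0.48 SE; adjusted p = 0.79 in edgeR). The ATP-gated channel gene P2RX7, which has been linked to PANX1 in rodent cells, was at 17.2 and 21.2 CPM in transgenic and 17.2 and 22.4 CPM in wild-type libraries. Microglia, which carry several of these receptors, had the marker medians given above for PANX2, with AIF1 at 5.66 and 7.92 CPM in transgenic and 11.5 and 10.3 CPM in wild-type libraries. Endothelial and mural markers were at -0.31 and -1.07 in transgenic and 0.09 and -0.09 in wild-type libraries, with CLDN5 at 20.7 and 28.6 CPM in transgenic and 42.1 and 33.6 CPM in wild-type libraries. The part of these cell types in the purinergic values was not tested.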

How the data were processed

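The deposited values are whole read counts, not normalized, with a row for each gene and a column for each library, per the file headers. Tools listed in the submitters' processing notes, with no role stated, are featureCounts 1.5.2, STAR 2.5.3a and kallisto 0.46.2. Genome build, annotation and strandedness were not given in the sources used here. Hence no coordinates are printed, and no sequences were used here. Per the labels' protocols, RNA was extracted with a column kit and made into Illumina libraries with KAPA Hyper reagents. The labels do not say whether each library came from its own animal, so p-values measure only the spread between these libraries.

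Counts were analysed in R 4.3.3. Genes were kept with filterByExpr (16385 of 35108), sizes scaled by TMM, and genotype tested as the only term by quasi-likelihood F-test in edgeR 4.0.16 (2 residual degrees of freedom, biological coefficient of variation 24.5%), with Benjamini-Hochberg adjustment over every gene kept and a threshold of 0.05. An exact permutation test of 2 against 2 libraries cannot give a two-sided p below 0.33. Deviations use log2 CPM with a prior count of 2, and median deviations and fold changes cover the genes of a list that were kept. Alternatives were DESeq2 1.42.0, limma-voom (limma 3.58.1), other scalings and filters, a replicate block and leaving out each library. The edgeR, DESeq2 and limma-voom fits to all libraries were tested on simulated counts. The other scalings and filters, the block, the fits with a library left out and the descriptive values were not.

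The 7 genes, the gene lists and the rule for named genes were chosen with earlier results of these data known. The rule named the 7, other family members with a mean count of at least 10, list genes with an unadjusted p under 0.05 (or the 2 smallest), the 3 most alike genes and 10 fixed markers. GJA4, P2RX7, MLC1, HEPACAM, TJP1, CAV1, FGFR3, SLC17A6 and KDM5D were named after their values were seen. A few genes that the rule names are left out and not reported here. Of 170 list entries, 166 matched the table. Blood markers had 1 gene kept, ALAS2, at 0.514 and 6.09 CPM in transgenic and 14.5 and 1.02 CPM in wild-type libraries. Oligodendrocyte precursor markers (8 genes) gave 0 calls and a median log2 fold change of -0.33.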

Additional observations from a re-analysis of the deposited data

How the results depend on the processing

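Of 84 recomputed log2 fold changes of the 7 genes, 73 kept their sign and their side of the threshold, 5 changed sign and 6 passed the threshold. PANX2 passed in DESeq2 (-0.92), and PANX2, GJA1, GJB6, GJB2 and GJB1 passed without transgenic library 1. The sign changes were GJA1 without transgenic library 2 and GJD2 in DESeq2 (0.0044), with no filter on low counts (0.0049), and without transgenic library 2 or wild-type library 2. With libraries left out, the log2 fold change ranged from -2.28 to 0.31 for GJA1, -4.08 to -0.10 for GJB6, -3.96 to -0.37 for GJB2, -1.41 to -0.50 for GJB1, -0.18 to 0.15 for GJD2, 0.18 to 0.39 for PANX1 and -1.10 to -0.78 for PANX2. In limma-voom, which averages log values, GJA1, GJB6 and GJB2 were at -0.99, -2.27 and -2.27, more than 1.5 times the edgeR values, and none passed.

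Over all genes, edgeR called 0, DESeq2 46, limma-voom 0 and edgeR with no filter on low counts 5. Without 1 library the count ranged from 0 to 1710, with 1710 without transgenic library 1 and 3 without transgenic library 2. Of the pathway genes, 0 to 11 were called in these fits, 11 without transgenic library 1. The number of the 7 genes negative in sign ranged from 4 to 6.

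Libraries of the same number share only that number, and their deviations from the group means correlated at -0.14. With the replicate number as a block edgeR called 0 genes, PANX2 was at -0.94, GJA1 at -0.97, GJB6 at -1.94 and GJB2 at -1.88, and no call on the 7 genes changed. With the numbers crossed, a pairing chosen after seeing the data, the block called 0 genes.

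Counts of 8 for GJB2 and 34 for GJB6 in transgenic library 2 limit the precision of those levels, as the Poisson intervals show. With 2 libraries a group, a difference as large as that between the transgenic libraries cannot be assigned to genotype.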
